A study of Mus musculus with 8 samples.

Results

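The genes described here are 37 markers and effectors of macrophages and neutrophils, the main phagocytes of the innate immune system. They were taken by name, each as 1 row of every expression table, out of 36432 gene identifiers. All 37 were found, and each had a usable estimate in all 8 libraries. They were divided by role into 8 markers of resident macrophages, 6 markers of inflammatory or lipid-laden macrophages, 3 neutrophil markers, 7 genes shared across the myeloid lineage, 4 genes of leukocytes in general, 5 Fc receptors and their adaptors, and 4 subunits of the phagocyte oxidase.

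Macrophages live in the stroma of every organ, including the pancreas, where they lie between the acini and around the islets and clear dying cells. Their survival depends on the receptor encoded by Csf1r, and their identity on the transcription factor PU.1, encoded by Sfpi1. Neutrophils are short-lived cells of the blood that enter tissue on injury and carry large amounts of the calcium-binding proteins S100A8 and S100A9. Both cell types bind antibody-coated particles through Fc receptors and kill with the superoxide made by the NADPH oxidase. In pancreatitis the exocrine pancreas is infiltrated by both.

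Poly(A) RNA was sequenced from whole pancreases of mice of mixed strain aged 6 to 8 weeks, 1 library per mouse. The 4 control mice had the genotype Ptf1a-Cre +/KI, in which Cre recombinase is expressed from the Ptf1a locus. The other 4 mice carried the same Cre allele together with Gata6 lox/lox. Ptf1a is active in pancreatic progenitors and acinar cells, so the phagocytes measured here do not belong to the lineage in which Cre acts. The comparison asks how phagocyte genes differ in an adult pancreas whose epithelium developed with a targeted Gata6, the gene of a zinc finger transcription factor. The labels give different animal codes and no pairing.

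The level of Gata6 did not check the labels. It was 2.76, 2.12, 2.62 and 2.45 rescaled FPKM in controls 1 to 4, and 4.81, 5.12, 4.90 and 4.12 in the 4 libraries labelled Gata6 lox/lox. The groups did not overlap, and Gata6 was higher in all 4 of the latter (log2 fold change 0.72, SE 0.11, limma adjusted p = 0.0442; exact two-sided permutation p = 0.0286, the smallest that 4 against 4 libraries can give). A gene-level value takes in exons outside the floxed part, so it says nothing about the deletion. These libraries are therefore called labelled libraries 1 to 4. Rescaled FPKM is the deposited value (fragments per kilobase, on a sample-specific scale) divided by 100000. It is per length, so levels can be compared between genes, but 1 unit is no fixed number of transcripts.

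The fragment numbers implied by the deposited intervals summed to 7124469 to 8247614 in controls against 5356211 to 9222755 in the labelled libraries. These sums left out entries with the status HIDATA or FAIL in the same library. There were 6 to 8 HIDATA entries per control and 0, 6, 5 and 6 in labelled libraries 1 to 4. The sums therefore do not cover the same genes in every library. Digestive enzyme transcripts differed greatly between libraries: the summed level of 11 enzyme genes was 365196 to 522162 in controls against 3788, 197302, 40380 and 264153 in labelled libraries 1 to 4. Labelled libraries 1 and 3 thus stood apart from the others. The title prefix was BKD for control 1 and for labelled libraries 1, 3 and 4, ASK for controls 2 to 4 and BSH for labelled library 2. Title prefix and group were therefore partly confounded. Among the ASK and BSH titles, prefix and group were the same division.

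Most phagocyte genes had their highest levels in labelled libraries 1 and 3, middle levels in 2 and levels near the controls in 4. In 34 of the 37 genes both libraries 1 and 3 exceeded both libraries 2 and 4, and library 2 exceeded library 4 in 31. Library 1 was above every control in 34 genes, library 2 in 29, library 3 in 35 and library 4 in 26. In 23 of the 37 genes the groups did not overlap, with every labelled library above every control. Over all 11832 genes tested, 10.9% did not overlap in that direction, and 8.26% of 25098 genes with no minimum on expression. No member was lower in all 4 labelled libraries, where 7.61% of all genes were. Without labelled libraries 1 and 3 the same 23 members did not overlap, against 12.6% of all genes tested. The count was 33 within the BKD titles (35.9% of all genes) and 29 within the ASK and BSH titles (30.6%), each with 1 library on one side. Leaving out libraries can only keep or raise such a count, so these 3 counts do not test whether the separation holds. It was 19 with median-ratio scaling (7.78%), 25 with an equal sum outside the enzymes (26.3%) and 27 with implied fragment totals (52.5%). In whole tissue, more cells of a type and more RNA per cell cannot be told apart.

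**Figure D1:**
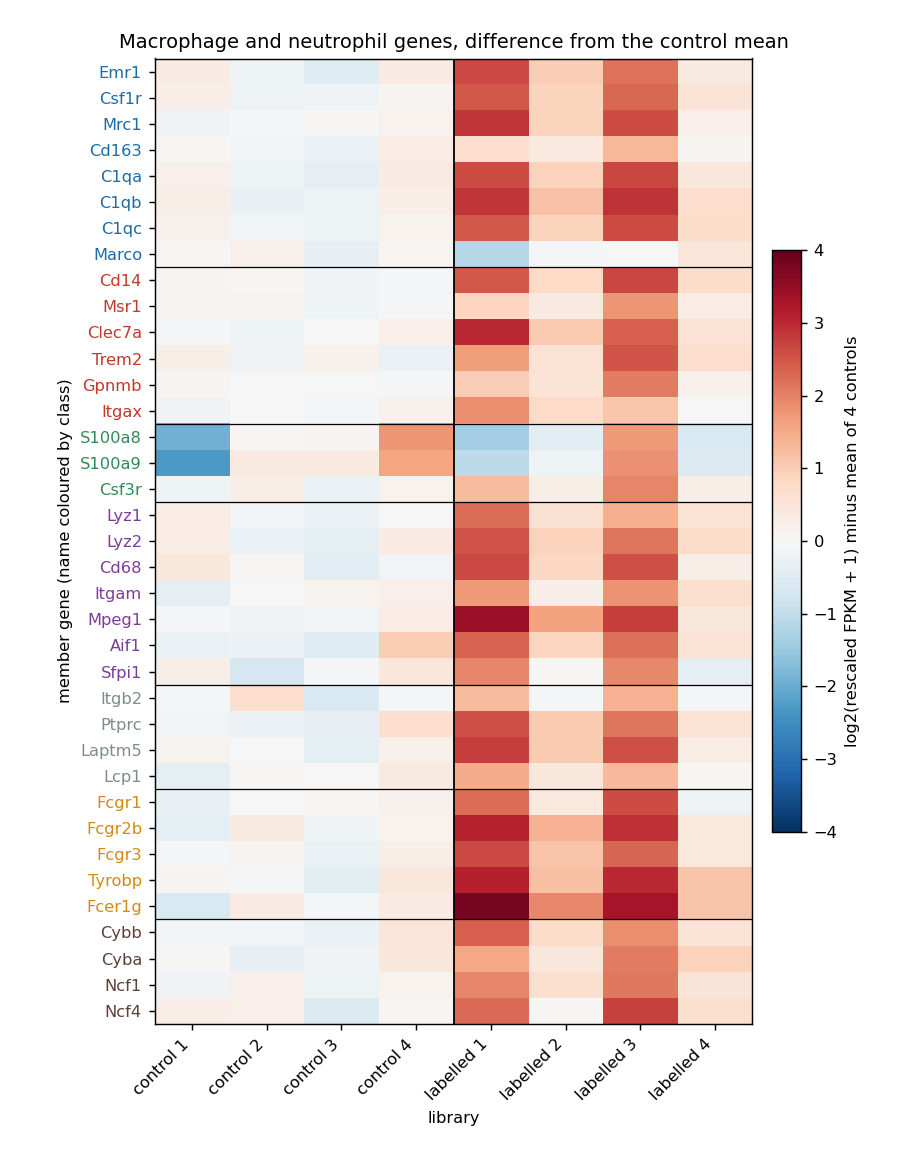
Difference of each of 37 genes (rows, grouped by class and separated by lines) from the mean of the 4 controls in each of 8 libraries (columns), on the log2(rescaled FPKM + 1) scale, red higher and blue lower. Labelled libraries 1 and 3 are red in nearly every row, while S100a8, S100a9 and Marco depart from the other rows.

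None of the members passed the test over all genes. With limma on log2(rescaled FPKM + 1) and Benjamini-Hochberg adjustment, 0 of the 35 members tested had an adjusted p under 0.05, where 0.414% of all genes did (0.22% higher, 0.194% lower). At an unadjusted p under 0.05 there were 29 members, all higher in the labelled libraries, where 17.8% of all genes were called in that direction, 12.2% in the other and 30.1% in either. The smallest adjusted p was 0.0892, for Fcer1g. Of the 35, 4 (Clec7a, Csf3r, Fcgr1 and Ncf1) reached the minimum mean of 1 rescaled FPKM only through the labelled libraries, and Gpnmb and Itgax did not reach it. Among the 31 members with a control mean of at least 1, the groups did not overlap in 20, all higher in the labelled libraries. That direction held for 10.9% of all genes tested, whose minimum was on the mean of all 8 libraries. The share of all genes under the control minimum was not computed. Leaving out labelled library 4, the one nearest to the controls, gave 25 members past the threshold, where 11.5% of all genes were called higher. With estimated sample weights, which were lowest for that library (0.343), 30 members passed as higher, where 19.5% of all genes did.

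Among the resident macrophage markers, the 3 chains of complement C1q, a secreted opsonin made mainly by macrophages, were the most abundant. Their genes lie side by side on chromosome 4 (mm9; C1qb at 136436044 to 136442102, C1qc at 136445719 to 136448980, C1qa at 136451832 to 136454718). C1qb was 17.2, 11.4, 12.4 and 17.3 rescaled FPKM in controls 1 to 4 and 109.9, 33.7, 113 and 24.0 in labelled libraries 1 to 4. All 4 labelled libraries were above all controls, libraries 1 and 3 by far. The mean was 14.6 ± 3.13 in controls against 70.02 ± 47.7 in the labelled libraries (SD, n = 4), with a log2 fold change of 1.91 (SE 0.51, limma adjusted p = 0.103). C1qa was 17.4, 13.2, 11.6 and 19.4 in controls against 97.7, 29.3, 101 and 20.9 in the labelled libraries. C1qc was 12.3, 10.1, 9.35 and 12.0 against 65.0, 20.9, 70.7 and 18.6. The 3 chains, which assemble into 1 protein, had the same order of libraries at the top (3, then 1, 2 and 4), and their log2 fold changes were 1.66 (C1qa, adjusted p = 0.114) and 1.67 (C1qc, adjusted p = 0.103) beside that of C1qb.

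Csf1r, the receptor for the macrophage growth factors CSF1 and IL-34, was 6.80, 4.62, 4.72 and 6.08 in controls against 35.7, 11.0, 30.8 and 8.53 in labelled libraries 1 to 4 (log2 1.56, SE 0.44, limma adjusted p = 0.105). The groups did not overlap. Emr1, which encodes the surface antigen F4/80, was 4.29, 2.72, 2.05 and 4.32 against 25.1, 7.42, 17.9 and 4.45 (log2 1.54, adjusted p = 0.114), so that library 4 lay just above the highest control. Mrc1, the mannose receptor CD206, was 2.32, 2.55, 2.85 and 3.10 against 26.0, 5.89, 21.7 and 3.22 (log2 1.65, adjusted p = 0.122). In library 1 Mrc1 was 9.62 times the control mean and in library 4 it was 1.19 times.

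The remaining resident markers, both scavenger receptors, did not separate the groups. Cd163, which takes up haemoglobin bound to haptoglobin, was 1.70, 1.42, 1.20 and 2.17 in controls against 3.16, 2.37, 5.46 and 1.78 in the labelled libraries (log2 0.62, SE 0.26, limma adjusted p = 0.157), with library 4 inside the control range. Marco, a receptor of marginal zone and some tissue macrophages, was 1.69, 2.01, 1.09 and 1.74 against 0.186, 1.46, 1.59 and 2.69 (log2 -0.18, SE 0.33, adjusted p = 0.707). Marco was lowest in labelled library 1, the library in which Mrc1, Csf1r and Emr1 were highest. Its sign turned with an equal sum outside the enzymes (0.26) and with implied fragment totals (0.49). Those scalings put the median over all genes at 0.84 and 1.12. With median-ratio scaling (-0.27) and quantile normalization (-0.39) Marco stayed negative.

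**Figure D2:**
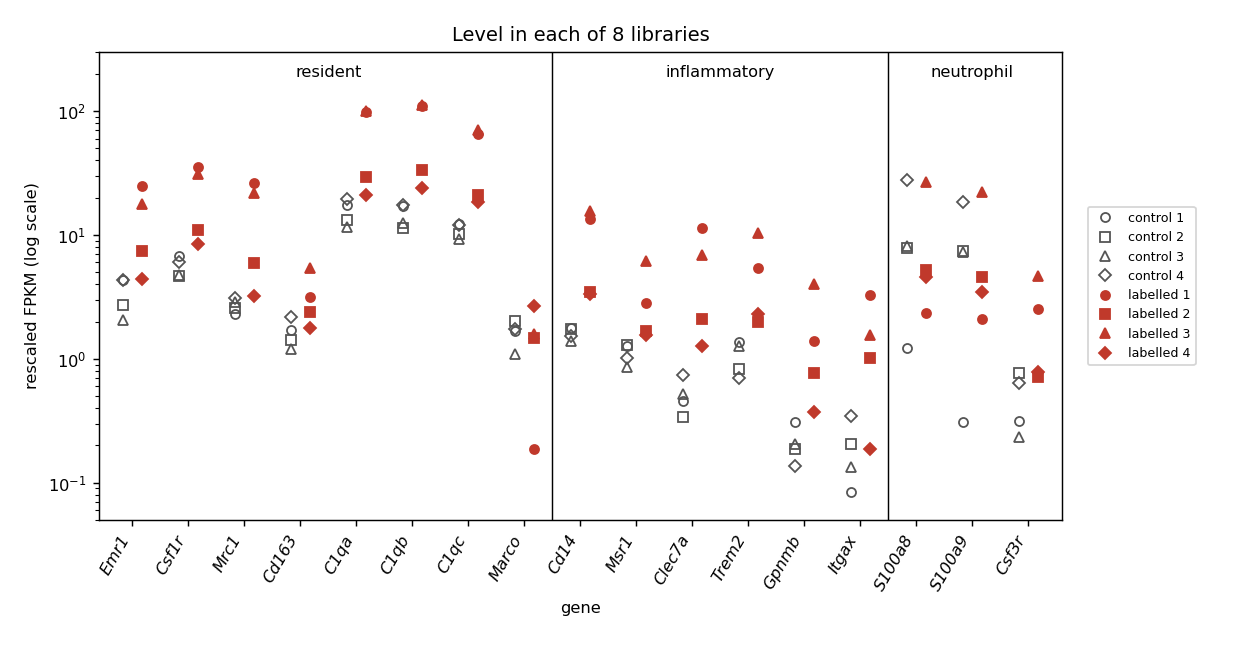
Level of the 17 resident, inflammatory and neutrophil markers (x axis) in each of 8 libraries, in rescaled FPKM on a log scale, with open grey symbols for controls and filled red symbols for labelled libraries. Most macrophage markers have all red symbols above the grey ones, with libraries 1 and 3 at the top, while S100a8 and S100a9 have grey and red symbols mixed.

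The markers of inflammatory or lipid-laden macrophages were low in the controls, at or below 1.79 rescaled FPKM in every control for all 6. Cd14, the coreceptor for bacterial lipopolysaccharide, was 1.79, 1.73, 1.38 and 1.52 in controls against 13.4, 3.48, 15.5 and 3.31 in the labelled libraries (log2 1.66, SE 0.45, limma adjusted p = 0.104). The groups did not overlap, and even the lowest labelled library, 4, was 2.06 times the control mean. Clec7a, the beta-glucan receptor dectin-1, was 0.453, 0.342, 0.522 and 0.740 against 11.3, 2.09, 6.88 and 1.26 (log2 1.76, SE 0.50, adjusted p = 0.106). Its ratio of means, 10.5, was the highest of the 37 genes, on 7.0 to 22.0 implied fragments per control. Trem2, a lipid-sensing receptor of macrophages in fat and injured tissue, was 1.36, 0.821, 1.27 and 0.694 against 5.39, 1.99, 10.4 and 2.28 (log2 1.36, SE 0.41, adjusted p = 0.110).

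Gpnmb, a glycoprotein of lipid-laden macrophages, was listed at 0.307, 0.189, 0.204 and 0.137 in controls against 1.38, 0.762, 4.05 and 0.376 in the labelled libraries. It was below the expression minimum and was not tested, and 3.02 to 5.61 implied fragments stood behind each control value. The groups did not overlap. Msr1, the class A scavenger receptor, was 1.27, 1.30, 0.866 and 1.02 against 2.83, 1.68, 6.13 and 1.56 (log2 0.81, SE 0.31, limma adjusted p = 0.138). Cd14, Gpnmb, Trem2 and Msr1 were each higher in labelled library 3 than in library 1, whereas Clec7a and Itgax were higher in library 1. Itgax, the integrin chain CD11c of dendritic cells and some macrophages, was 0.0836, 0.206, 0.135 and 0.344 against 3.31, 1.02, 1.56 and 0.187. Library 4 lay within the control range for Itgax, which was not tested either.

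The groups overlapped for all 3 neutrophil markers. S100a8 and S100a9, which encode the 2 chains of calprotectin and neighbour each other on chromosome 3, had a spread within each group larger than the difference between them. S100a8 was 1.23, 7.88, 8.20 and 27.6 in controls against 2.34, 5.22, 26.6 and 4.61 in labelled libraries 1 to 4 (log2 -0.17, SE 0.85, limma adjusted p = 0.897). S100a9 was 0.309, 7.37, 7.25 and 18.4 against 2.12, 4.56, 22.2 and 3.46 (log2 0.01, SE 0.88, adjusted p = 0.996). Both were highest in control 4 or labelled library 3 and lowest in control 1 and then labelled library 1. The control 1 values rested on 2.0 and 0.511 implied fragments.

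Without control 1 the log2 fold change of S100a9 was -0.76, and without labelled library 3 it was -0.60. Within the BKD titles, where control 1 is the only control, S100a8 gave 1.85, and within the ASK and BSH titles S100a9 gave -0.99. Csf3r, the receptor for granulocyte colony-stimulating factor, was 0.312, 0.774, 0.234 and 0.637 in controls against 2.53, 0.718, 4.71 and 0.778 in the labelled libraries (log2 0.93, SE 0.39, adjusted p = 0.160 in limma). Labelled libraries 1 and 3 were above the controls for Csf3r, while library 2 was within their range and library 4 (0.778) barely exceeded control 2 (0.774). In library 1 Csf3r was 5.17 times the control mean while S100a8 was 0.208 times it.

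All 7 genes shared across the myeloid lineage had their highest values in labelled libraries 1 and 3. Lyz2, lysozyme M, which digests bacterial cell walls, had the highest level of the 37 genes, at 94.2, 63.4, 58.1 and 96.0 in controls against 443, 145, 342 and 128 in the labelled libraries (log2 1.59, SE 0.45, limma adjusted p = 0.105). Lyz1, its neighbour on chromosome 10, is the lysozyme of intestinal Paneth cells and was 6.69, 4.72, 4.33 and 5.32 against 28.3, 8.46, 15.7 and 8.03 (log2 1.20, adjusted p = 0.112). Neither pair of groups overlapped. The 2 lysozymes are near copies whose fragments Cufflinks could have split. The 6 listed intestinal and Paneth cell genes summed to 0.206 to 0.549 in controls against 27.3, 1.46, 7.61 and 0.698 in labelled libraries 1 to 4. Most of that was Mmp7, a protease of Paneth cells and injured epithelium, at 0 to 0.323 and 26.3, 1.04, 6.36 and 0 (log2 1.97, limma adjusted p = 0.178). Mmp7 reached the expression minimum only through the labelled libraries. Vil1 reached 1.24 and Muc2 0.0241, and Defa24, Alpi and Fabp2 were at 0 in all 8 libraries. The part of such cells in the Lyz1 values was not tested.

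Mpeg1, a pore-forming protein of macrophages, was 2.48, 2.24, 2.30 and 3.40 in controls against 37.1, 9.85, 23.2 and 3.95 in the labelled libraries (log2 2.06, SE 0.56, limma adjusted p = 0.104). Itgam, the integrin chain CD11b of macrophages and neutrophils, did not overlap either, at 2.29 to 3.91 in controls against 4.10 to 13.7 in the labelled libraries (log2 1.10, adjusted p = 0.116). Cd68, a lysosomal glycoprotein, and Aif1, which encodes the actin-binding protein IBA1, had log2 fold changes of 1.57 and 1.50 (adjusted p = 0.123 and 0.116) and overlapped. Cd68 overlapped through control 1 (7.80) and labelled library 4 (6.59), Aif1 through control 4 (3.49) and libraries 2 (3.11) and 4 (2.38). Sfpi1 itself was 3.94, 1.64, 3.06 and 4.72 against 15.3, 3.29, 14.7 and 2.24 (log2 0.89, SE 0.56, adjusted p = 0.295). Only libraries 1 and 3 were above the controls for Sfpi1, and without them its log2 fold change was -0.16.

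The Fc receptors and their adaptors held the members with the largest log2 fold changes. Fcer1g, the common gamma chain through which several Fc receptors signal, was 2.44, 5.55, 4.10 and 5.65 in controls against 71.6, 18.8, 50.2 and 10.6 in the labelled libraries (log2 2.53, SE 0.56, limma adjusted p = 0.0892). Tyrobp, the adaptor DAP12 that serves Trem2 and other receptors, was 8.91, 7.57, 5.62 and 11.4 against 78.2, 20.2, 73.4 and 19.1 (log2 2.12, SE 0.51, adjusted p = 0.0946). In both genes every labelled library was above every control, and the lowest labelled library, 4, was 2.39 and 2.28 times the control mean. Fcgr2b, the inhibitory receptor for immunoglobulin G, was 1.64, 3.42, 2.10 and 2.75 against 27.7, 8.00, 25.0 and 3.59 (log2 1.96, adjusted p = 0.106).

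Fcgr3, an activating low-affinity receptor, was 2.91, 3.52, 2.50 and 3.88 in controls against 25.3, 8.16, 20.1 and 4.63 in the labelled libraries (log2 1.64, SE 0.46, limma adjusted p = 0.104). Fcgr2b and Fcgr3 lie close together on chromosome 1 and resemble each other in sequence, so the division of fragments between them is uncertain. Fcgr1, the high-affinity receptor CD64, was 0.333, 0.660, 0.725 and 0.838 against 6.73, 1.18, 8.91 and 0.412 (log2 1.27, SE 0.60, adjusted p = 0.186). Labelled library 4 lay within the control range for Fcgr1, and libraries 1 and 3 were 10.5 and 13.9 times the control mean.

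The 4 subunits of the phagocyte NADPH oxidase were higher in the labelled libraries by similar amounts, with log2 fold changes from 1.25 to 1.42 and limma adjusted p from 0.105 to 0.148. Cybb, the catalytic subunit gp91phox, was 2.13, 2.11, 1.80 and 3.68 in controls against 16.7, 4.60, 11.2 and 3.91 in the labelled libraries. Cyba, its membrane partner p22phox, was 9.46, 7.08, 8.20 and 12.8 against 28.8, 12.9, 42.3 and 18.3. Neither pair of groups overlapped, although labelled library 2 was just above control 4 for Cyba. The cytosolic subunit Ncf1 was 0.739, 1.21, 0.685 and 1.15 against 6.49, 1.99, 7.35 and 1.73 and did not overlap, on 2.53 to 3.47 implied fragments per control. Ncf4, another cytosolic subunit, overlapped through library 2, which at 1.72 was within the control range of 0.800 to 2.19.

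Of the genes found in leukocytes in general, Laptm5, a lysosomal membrane protein, did not overlap, at 9.99, 8.96, 6.73 and 10.5 in controls against 67.0, 19.4, 58.1 and 11.1 in the labelled libraries (log2 1.67, SE 0.53, limma adjusted p = 0.115). Ptprc, the phosphatase CD45 carried by all leukocytes, was 1.20, 1.02, 0.895 and 2.77 against 13.03, 3.87, 9.55 and 2.54 (log2 1.58, SE 0.45, adjusted p = 0.105), with library 4 below control 4. Lcp1, the actin bundler L-plastin, and Itgb2, the integrin beta chain CD18, had smaller values of 0.83 and 0.63 (adjusted p = 0.149 and 0.312). For Itgb2, control 2 (7.97) was above labelled libraries 2 (4.44) and 4 (4.24).

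**Figure D3:**
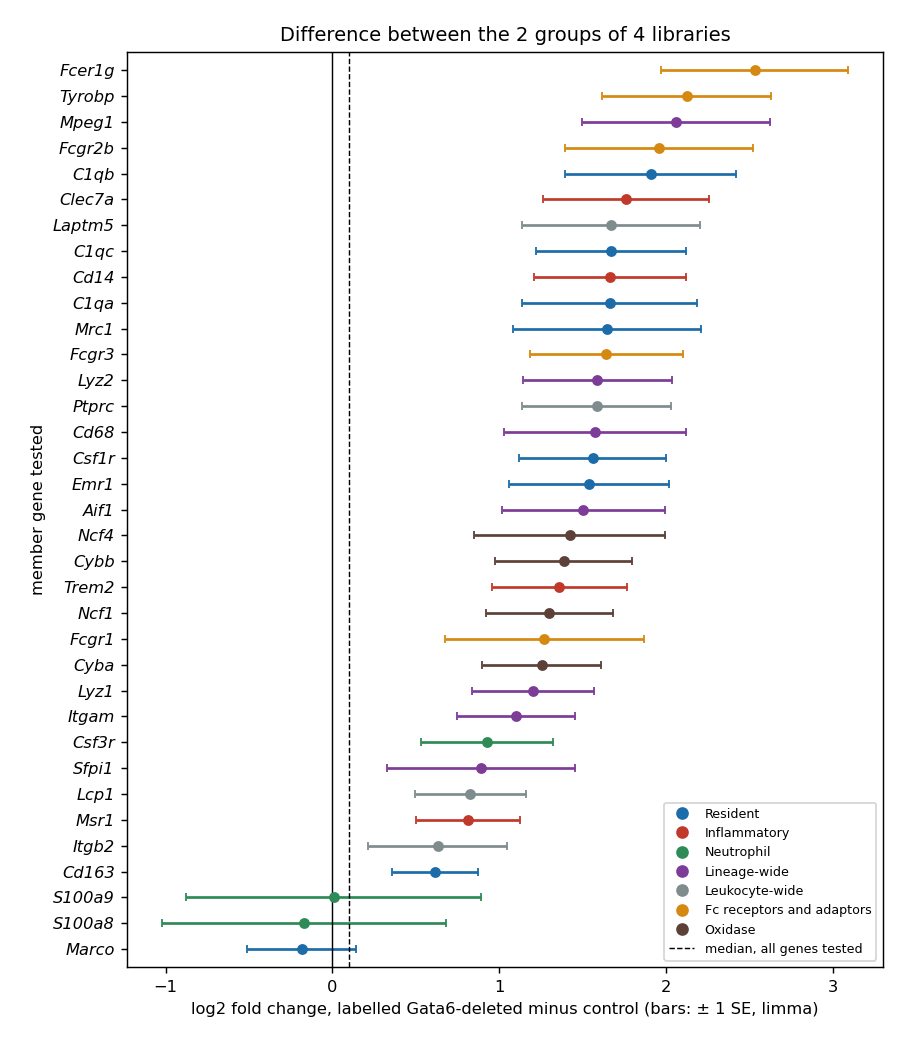
Log2 fold change of the 35 members tested (rows), labelled minus control libraries, on the log2(rescaled FPKM + 1) scale with bars of 1 SE from limma, coloured by class. The dashed line is the median of all genes tested (0.10); 33 members lie right of 0, Fcer1g farthest at 2.53, and none passed the threshold.

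The median log2 fold change of the tested members of each class is given as a description, beside a median of 0.10 over all genes. It was 1.96 for the Fc receptors and adaptors, 1.60 for the resident markers, 1.51 for 4 of the 6 inflammatory markers, 1.50 for the lineage-wide genes, 1.34 for the oxidase, 1.20 for the leukocyte-wide genes and 0.01 for the neutrophil markers. Over all 35 tested it was 1.50, and over all 37 in a fit with no minimum 1.42. By library, the median difference from the control mean over the 35 was 2.40, 0.79, 2.20 and 0.50 in labelled libraries 1 to 4, where the same quantity over all genes was 0.16, -0.01, 0.17 and 0.03. Without labelled libraries 1 and 3 the median over the 35 was 0.64, and within the BKD titles and within the ASK and BSH titles it was 1.72 and 0.79. With the title prefix as a covariate, coded as BKD against ASK and BSH together, it was 1.20, and 0 members passed. The split by prefix leaves 1 library in one group, which limma then assumes to vary like the others. Among the ASK and BSH titles, prefix and group cannot be told apart.

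Ratios were also taken between genes of the same library, with a pseudocount of 0.1 that weighs on low genes such as Gpnmb. Relative to Csf1r, 4 genes chosen to stand for lipid-laden (Trem2, Gpnmb), resident (Mrc1) and neutrophil (S100a8) character were compared between the groups. The log2 ratio of Trem2 to Csf1r was -2.34 ± 0.47 in controls against -2.13 ± 0.52 in the labelled libraries (SD, n = 4; exact two-sided permutation p = 0.571). That of Gpnmb was -4.20 ± 0.34 and -3.84 ± 0.73 (exact p = 0.457; the difference of 0.36 became 0.72 with a pseudocount of 0.01 and -0.61 with 1), and that of Mrc1 was -1.0 ± 0.35 and -0.81 ± 0.43 (exact p = 0.514). The ratio of S100a8 to Csf1r was 0.33 ± 1.92 and -1.51 ± 1.62 (exact p = 0.229). Adjusted over the 4 ratios, each p was 0.571. These p-values do not show that the ratios were alike. Within the labelled group, Gpnmb relative to Csf1r ran from -4.59 in library 1 to -2.90 in library 3, although both libraries had high Csf1r.

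**Figure D4:**
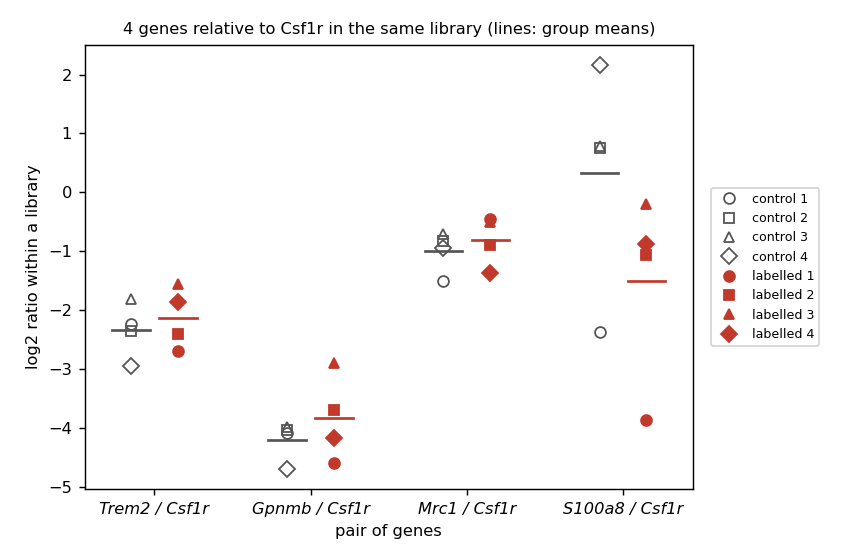
Log2 ratio of Trem2, Gpnmb, Mrc1 and S100a8 to Csf1r (x axis) within each of 8 libraries, open grey symbols for controls and filled red ones for labelled libraries, with lines at the group means. The groups overlap for all 4 ratios; S100a8 spreads most, from -3.88 in labelled library 1 to 2.16 in control 4.

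Other macrophage genes mostly had higher values in the labelled libraries, and none of those tested passed in limma. Of 25 listed, 21 were tested and 20 had a positive log2 fold change, where 57.8% of all genes did. An unadjusted p under 0.05 was found for 13, where 30.1% of all genes had one in either direction. The median of the list was 1.14. The 2 of highest mean were Retnla, a marker of alternative activation, at 15.5 to 21.5 in controls against 114, 37.8, 27.2 and 23.0 in labelled libraries 1 to 4 (log2 1.14, limma adjusted p = 0.147), and Spp1, osteopontin, which duct cells also make, at 48.1 to 61.0 and 184, 47.9, 74.4 and 17.6 (log2 0.13, adjusted p = 0.892). Retnla did not overlap between the groups and Spp1 did. Chosen after their values were seen, the monocyte receptor Ccr2 was 1.47 to 2.12 in controls against 43.8, 4.95, 17.6 and 2.47 in the labelled libraries, while Ly6c2, another monocyte gene, overlapped (log2 0.92, adjusted p = 0.190). Of 3 resident markers chosen in the same way, Folr2 did not overlap (3.26 to 6.29 and 6.98 to 24.1, log2 1.35, adjusted p = 0.103), and Lyve1 and Timd4 did (log2 0.32 and 0.06).

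Of 20 other neutrophil genes listed, 7 reached the expression minimum of 1 rescaled FPKM. Of these, 6 had a positive log2 fold change, where 57.8% of all genes did, and the median of the 7 was 0.47. None passed in limma (0 of 7), and 2 did by the unadjusted p, where 30.1% of all genes did. The 2 of highest mean were Hp, haptoglobin, which fat and liver also make (2.61 to 12.9 in controls, 77.2, 20.5, 90.0 and 34.8 in the labelled libraries), and Lcn2, lipocalin-2, which injured epithelium also makes (0.813 to 1.63, and 29.0, 1.52, 17.5 and 1.22). The log2 fold change of Hp was 2.93 (limma adjusted p = 0.0778), and its groups did not overlap. Those of the formyl peptide receptor gene Fpr2 did not either, at 0 to 0.565 in controls against 0.908 to 2.57 (log2 0.99, adjusted p = 0.103 in limma). Fpr2 reached the expression minimum only through the labelled libraries. The granule genes Mpo, Elane, Prtn3 and Ctsg were at most 0.911 in any library, while Ngp, Camp and Ltf reached 3.67, 2.53 and 1.27, each in control 4. Ly6g, the defining surface marker of mouse neutrophils, was at 0 in 7 libraries and at 0.220 in labelled library 3. Labelled library 3 also had the highest Cxcr2 (1.44) and Retnlg (5.48), both genes of mature neutrophils. All of these but Hp and Lcn2 were chosen after their values were seen.

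Growth factors, signalling partners and transcription factors of these cells mostly had their highest values in labelled libraries 1 and 3 as well. Of 8 growth factors and attractants 3 were tested, and 0 passed (2 by the unadjusted p, against 30.1% of all genes). Csf1 and Il34, the ligands of the Csf1r receptor, were 1.32 to 3.28 and 1.42 to 2.86 in controls, against 9.49, 3.96, 9.17 and 2.77, and 4.20, 3.47, 6.05 and 2.38, in the labelled libraries. Both overlapped through library 4. Csf2 was at 0 in all 8 libraries, and Csf3, the ligand of the Csf3r receptor, was above 0 in labelled libraries 1 and 3 alone (0.0231 and 0.0474); both were looked up after their values were seen. Of the 3 oxidase partners none passed (0 of 3, 2 by limma's unadjusted p below 0.05, against 30.1% of all genes). Rac1, which most cells express, was 27.1 to 43.5 in controls against 26.6 to 43.4 in the labelled libraries, and Rac2, its form in blood cells, was 0.940 to 2.74 and 2.42 to 8.39.

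Of the kinases and other partners of the Fc receptors, 10 of 11 were found, 9 were tested and 9 had positive values. Their median was 0.81, and none passed the threshold (7 by limma's unadjusted p below 0.05, against 30.1% of all genes). The 2 of highest mean were the kinase Lyn, at 1.51 to 2.56 and 2.80 to 7.83, and the lipid phosphatase Inpp5d, at 0.503 to 2.18 and 1.39 to 6.69. Of the 9 myeloid transcription factors 7 were tested, with a median of 0.92. None passed the threshold (5 by the unadjusted p, against 30.1% of all genes). Cebpa, which fat cells also express, did not overlap (4.94 to 6.85 and 7.50 to 12.0), and Maf did not either (1.58 to 2.20 and 2.74 to 9.67).

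Markers of several other cell types also differed between these libraries. The summed level of 10 dendritic cell genes was 60.3 to 132.9 in controls against 932, 269.97, 413 and 106.7 in labelled libraries 1 to 4. It came mostly from Cd74 and H2-Ab1, which macrophages and B cells also express, while Xcr1, also listed, was at most 0.587. Of the 10 genes 4 were tested, with a median log2 fold change of 1.55. All 4 were positive, where 57.8% of all genes were. None passed in limma, and 3 had an unadjusted p under 0.05, against 30.1% of all genes. The 6 fibroblast genes summed to 154 to 199 in controls against 629, 244, 952 and 269 in the labelled libraries. None of them passed in limma, but all 6 had an unadjusted p under 0.05, against 30.1% of all genes. In 4 of the 6 every labelled library was above every control, where 10.9% of all genes tested were. The 6 adipocyte genes summed to 36.7 to 133 and to 274, 223, 231 and 288. By limma's unadjusted p 5 of them were below 0.05, and 4 had every labelled library above every control. Only 1 passed as higher, where 0.22% of all genes did. Cidec, a lipid droplet protein of fat, rose, with 2.33 to 7.90 among controls and 18.2 to 24.6 among labelled libraries (log2 1.95, SE 0.29, limma adjusted p = 0.0362).

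The 5 B cell genes summed to 4.33 to 16.4 in the controls, highest in control 4, and to 11.9, 11.6, 27.8 and 13.3 in the labelled libraries. The 8 T and NK cell genes summed to 0.491 to 2.74 and to 9.78, 4.40, 6.82 and 4.85. Lymph node genes summed to 12.1 to 23.4 and to 16.9, 13.5, 51.5 and 56.6, mostly through Cxcl13. Endothelial genes, which mark blood vessels, summed to 17.5 to 23.6 and to 21.8, 18.9, 20.8 and 16.0, and the erythroid genes, as a measure of blood, to 35.3 to 207 and to 102.7, 122, 96.8 and 216. The 9 mast cell and eosinophil genes summed to 4.78 to 6.33 and to 7.02 to 10.3. In none of these 6 lists did a gene pass in limma. The unadjusted p was below 0.05 for 1 of 4 B cell and 2 of 2 T and NK cell genes tested. It was so for 1 of 4 endothelial and 1 of 3 mast cell and eosinophil genes, against 30.1% of all genes. With such low control sums, T and NK cell genes could reach the expression minimum through the labelled libraries. The part of these cell types, and of the loss of enzyme transcripts in labelled libraries 1 and 3, in the values of the members was not tested.

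**Figure D5:**
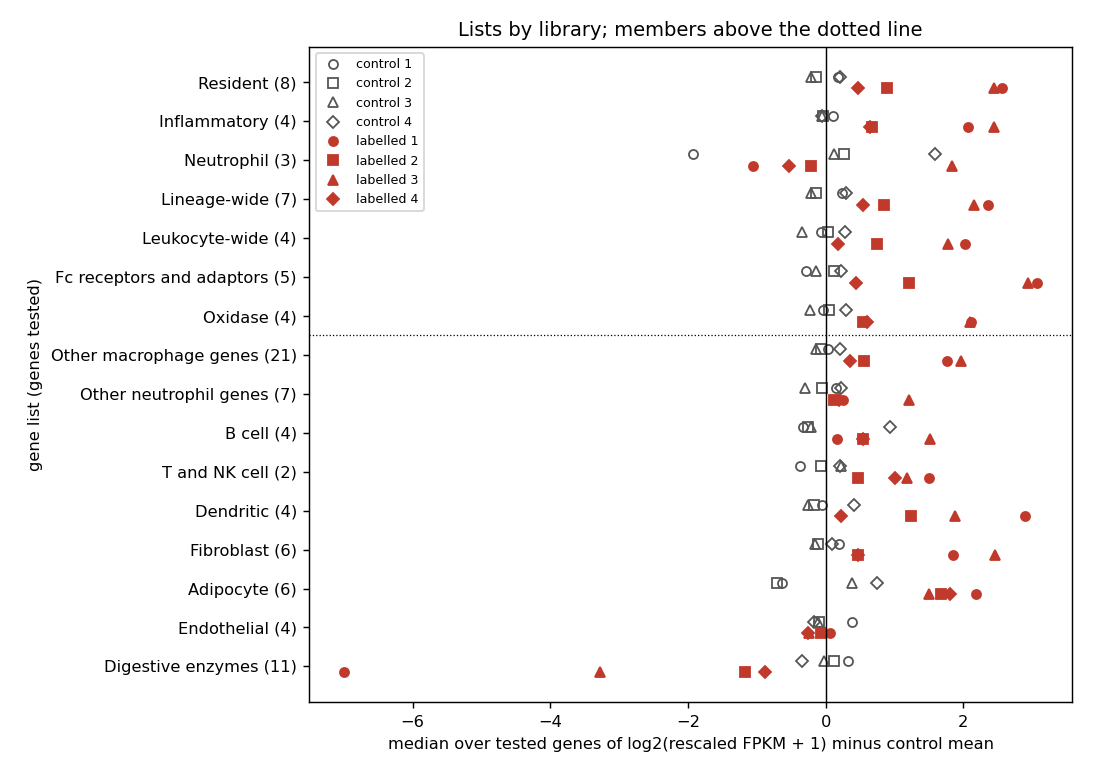
Median over the tested genes of each list (y axis, number of genes in brackets) of the difference from the control mean on the log2(rescaled FPKM + 1) scale (x axis), by library, open grey symbols for controls and filled red symbols for labelled libraries. Macrophage classes, dendritic cell genes and fibroblast genes have labelled libraries 1 and 3 far to the right. Neutrophil markers spread on both sides of 0. Digestive enzymes lie left of 0 in the labelled libraries, with library 1 at -7.00.

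The promoters of the members were examined because most of these genes had the same order of libraries. RefSeq promoter windows were matched for 28 of the 37 members (32 windows, GRCm38.p6), and the 250 bases before each start were searched on both strands. The core of the PU.1 binding motif, GAGGAA, was found in 17 of the 32 windows (53.1%), and in 23.3% of all 32851 promoter windows of that length. The longer form GAGGAAGT, which contains the core, was found in 2 windows (6.25%, against 2.44% of all), those of C1qc and S100a8. The C/EBP motif TTGCNNAA was found in 5 windows (15.6%, against 9.56%). Overlapping windows of Clec7a and of Fcgr3 held the same matches. By gene the core was found in 15 of the 28 members (53.6%) and the C/EBP motif in 4 (14.3%). Of the 17 members with a window whose groups did not overlap 8 held the core, and of the 11 others 7 did. A match to these letters is not a measured site.

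6 promoters are shown, 5′ to 3′, with each GAGGAA or its reverse complement in capitals: 2 of the C1q chains, Trem2 as an inflammatory marker, Fcer1g as the member with the largest log2 fold change, and S100a8 and Marco, whose groups overlapped. They lie on GRCm38.p6 at chr4:136892915-136893164, minus strand (C1qc), chr4:136886201-136886450, minus strand (C1qb), chr17:48346151-48346400, plus strand (Trem2), chr1:171234350-171234599, minus strand (Fcer1g), chr3:90668821-90669070, plus strand (S100a8) and chr1:120505025-120505274, minus strand (Marco).
C1qc: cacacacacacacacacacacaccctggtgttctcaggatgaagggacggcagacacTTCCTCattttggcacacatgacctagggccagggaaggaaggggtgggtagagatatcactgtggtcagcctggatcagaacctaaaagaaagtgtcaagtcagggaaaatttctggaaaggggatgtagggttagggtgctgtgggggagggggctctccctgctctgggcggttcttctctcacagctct
C1qb: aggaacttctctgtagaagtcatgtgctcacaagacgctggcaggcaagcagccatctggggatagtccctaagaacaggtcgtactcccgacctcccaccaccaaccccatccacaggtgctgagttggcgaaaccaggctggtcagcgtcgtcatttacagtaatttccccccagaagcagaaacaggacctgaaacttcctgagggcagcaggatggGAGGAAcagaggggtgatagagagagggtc
Trem2: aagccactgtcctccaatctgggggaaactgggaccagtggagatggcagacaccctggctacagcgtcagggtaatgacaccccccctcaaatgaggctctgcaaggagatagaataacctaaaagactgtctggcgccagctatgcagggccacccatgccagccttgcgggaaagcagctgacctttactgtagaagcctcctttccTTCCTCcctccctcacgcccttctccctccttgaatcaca
Fcer1g: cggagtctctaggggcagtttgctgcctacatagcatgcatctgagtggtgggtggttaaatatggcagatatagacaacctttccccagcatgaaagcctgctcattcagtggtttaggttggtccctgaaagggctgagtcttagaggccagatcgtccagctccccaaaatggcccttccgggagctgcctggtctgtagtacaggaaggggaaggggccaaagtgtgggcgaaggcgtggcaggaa
S100a8: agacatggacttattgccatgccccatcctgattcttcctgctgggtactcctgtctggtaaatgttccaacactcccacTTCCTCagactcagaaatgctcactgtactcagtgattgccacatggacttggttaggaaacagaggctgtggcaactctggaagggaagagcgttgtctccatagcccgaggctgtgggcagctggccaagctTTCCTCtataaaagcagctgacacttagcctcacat
Marco: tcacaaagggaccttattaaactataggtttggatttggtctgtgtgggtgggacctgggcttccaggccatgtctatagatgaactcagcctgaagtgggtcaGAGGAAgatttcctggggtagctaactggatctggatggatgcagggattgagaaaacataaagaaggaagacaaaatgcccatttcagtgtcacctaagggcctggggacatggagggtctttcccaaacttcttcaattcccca

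The core began 30 bases before the start in C1qb, 40 in Trem2, 193 in C1qc and 146 in Marco, and at 170 and 36 in S100a8. The Fcer1g window held none, although Fcer1g had the largest log2 fold change. The 2 C1q windows, from neighbouring genes with the same order of the labelled libraries, differed in the place and strand of the match.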

How the data were processed

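Each of the 8 samples had 1 gene table, deposited by the authors as written by Cufflinks, with FPKM values, interval bounds and a status for 36432 gene identifiers. According to the submitters' processing notes, Cufflinks 2.0.1, Bowtie, TopHat2 2.0.4 and CASAVA 1.8 were used with the builds mm9 and NCBIM37. For strand, read length and annotation release the sources used here say nothing. The deposited FPKM values summed to 2.34e+10 to 1.86e+11 per sample, so they were divided by 100000 and called rescaled FPKM. The 39 genes with the status HIDATA or FAIL in any sample were left out of the tests. Genes with a mean of at least 1 over the 8 samples (11832) were taken to log2(rescaled FPKM + 1) and fitted by limma (version 3.58.1, under R 4.3.3) with an intensity trend, two-sided, and adjusted by Benjamini-Hochberg over all of them at 0.05. This scale understates the change of low genes. No count test was run, since the tables hold no counts.

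Implied fragments are the square of the FPKM over its SD, with the SD from the upper bound of the interval. They treat the interval as counting error alone and did not follow the level. In controls they were 7.75 to 37.4 for Laptm5 (6.73 to 10.5 rescaled FPKM) and 20.0 to 45.0 for Marco (1.09 to 2.01). They are therefore no direct measure of depth. Ratios within a library used a pseudocount of 0.1. The fit was tested on simulated data. Starts on mm9 were raised by 1, as end minus start equalled the annotated length in 7002 of 8323 single-exon genes. All 37 members and Gata6 are named, with up to 4 passing genes of each other list or its 2 of highest mean. The members and lists were chosen with earlier results of these data known. P-values measure the spread between these mice. Other pseudocounts, minimums, scalings, limma options, title prefixes and left-out libraries were tried. Syk and Cela3a had no row under those symbols, and Siglec1 and Pecam1 had a failed estimate.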

Additional observations from a re-analysis of the deposited data

Results flagged for a closer look

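In 4 of 76 groups of 4 libraries examined, 1 library lay far from the others. Chance alone flags about 5% of such groups, and 4 of 76 is near that share. Labelled library 3 stood far above the other labelled libraries in both chains of calprotectin, S100a8 at 26.6 (the others 2.34 to 5.22) and S100a9 at 22.2 (the others 2.12 to 4.56). Control 4 stood far above the other controls in Aif1 at 3.49 (the others 0.562 to 0.921) and in Ptprc at 2.77 (the others 0.895 to 1.20). Control 4 also had the highest S100a8 and the highest B cell sum of the controls.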

How the results depend on the processing

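No member passed the limma test in 20 of 22 alternatives, and the exceptions were estimated sample weights (30 members higher) and the fit without labelled library 4 (25 higher); leaving out single libraries gave 0 to 25. No member passed as lower in any. Of all genes 26 passed as higher and 23 as lower, with 7 to 1358 and 3 to 1198 when single libraries were left out, 2307 and 1473 with sample weights, 18 and 23 with median-ratio scaling, 12 and 18 with quantile normalization, 21 and 0 with an equal sum, and 6 and 0 with implied totals. The groups did not overlap in 19 to 33 members under alternatives chosen after seeing the data. Those that left out libraries could only keep or raise the main count of 23.

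The median of all members was 2.54 with implied totals, 0.64 when labelled libraries 1 and 3 were left out, 0.79 with ASK and BSH titles alone, and 1.22 to 1.81 with single libraries left out. With an equal sum outside the enzymes and with implied totals, which put the median over all genes at 0.84 and 1.12, the class medians were 2.45 and 2.80 (resident), 2.18 and 2.46 (inflammatory), 2.19 and 2.46 (lineage-wide), 2.02 and 2.34 (leukocyte-wide) and 2.15 and 2.48 (oxidase), and 3.09 with implied totals for the Fc receptors. Restricted to ASK and BSH they were 0.73 (inflammatory), 0.79 (lineage-wide) and 0.52 (oxidase). Without labelled libraries 1 and 3 they were 0.68 (resident), 0.70 (inflammatory), 0.57 (lineage-wide), 0.46 (leukocyte-wide), 0.91 (Fc receptors) and 0.60 (oxidase). With a pseudocount of 5 the inflammatory median was 0.73. Left-out single libraries gave 1.24 to 1.96 (resident), 1.15 to 1.79 (inflammatory), 1.22 to 1.81 (lineage-wide), 0.93 to 1.50 (leukocyte-wide), 1.59 to 2.45 (Fc receptors) and 1.01 to 1.62 (oxidase).

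The neutrophil median turned to -0.067 (pseudocount 5), -0.082 (minimum of 5), -0.14 (median ratio), -0.12 (quantile), -0.38 (labelled libraries 1 and 3 left out) and -0.99 (ASK and BSH titles), was 1.85 among the BKD titles, and ran from -0.76 to 0.54 without single libraries. S100a9 took those negative values, except at the minimum of 5 (0.01), was 2.39 among the BKD titles, and was -0.60 without labelled library 3. S100a8 turned to 0.64 (equal sum), 0.95 (implied totals), 0.28 (sample weights), 0.38 (prefix covariate), 1.85 (BKD titles), 0.41 (without control 4) and 0.22 (without labelled library 1), with -0.82 to 0.41 without single libraries. Marco turned to 0.26 (equal sum), 0.49 (implied totals), 0.13 (without labelled library 1, of -0.41 to 0.13 without single libraries) and 0.21 (without 1 and 3). Without labelled libraries 1 and 3 Sfpi1 was -0.16 and Itgb2 -0.060, and Itgb2 was -0.043 among the ASK and BSH titles. With a pseudocount of 1 the difference in the ratio to Csf1r turned to -0.20 for Trem2 and -0.61 for Gpnmb, from 0.21 and 0.36, and with 0.01 that of Gpnmb was 0.72. Without single libraries the ratio difference was 0.01 to 0.40 for Trem2, 0.05 to 0.61 for Gpnmb, 0.02 to 0.38 for Mrc1 and -2.74 to -1.05 for S100a8. The causes were not tested. Trem2, Gpnmb, Itgax, S100a8, S100a9, Csf3r, Aif1, Sfpi1, Fcgr1, Fcgr2b, Ncf1 and Ncf4 had under 5 implied fragments in at least 1 control. Their control values were thus uncertain, whether through depth or through another source of interval width. No paired analysis was possible because the labels give animal codes and no shared replicate numbers.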
